A study of Homo sapiens with 2 samples.

Results

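Transcripts for blood group antigens and glycophorins were compared between nilotinibR and parental K562 cells, an erythroleukemic cell line from chronic myeloid leukemia that carries BCR/ABL. Probes were chosen by name from the annotation of the HumanHT-12v4 BeadChip, which gave 9 probes for 6 of the 9 genes sought: KEL, XK, RHD, RHCE, RHAG and ERMAP. The whole array holds 47323 probes, of which 30113 carry a single gene name, for 20046 genes. The annotation used here lists no probe for GYPB, GYPC and GYPE, which are therefore described apart from all counts. Parental cells were grown in parallel without drug. NilotinibR cells came from the same line after passage in nilotinib, a BCR/ABL inhibitor, at 0.1 µM, then 0.3 µM and 1 µM over 3 months, and were kept in 1 µM. Each condition was measured on 1 array, so no difference has a replicate check, no test was run, and precision is limited by that number of arrays. Resistance, the presence of nilotinib and chance differences between cultures cannot be told apart, nor can more cells of a type and more RNA per cell.

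Blood group antigens are inherited differences in molecules on the red cell surface. Many of them sit on membrane proteins made during erythroid maturation. Kell, a zinc-dependent peptidase encoded by KEL, is linked by a disulfide bond to XK, the carrier of the Kx antigen. The D antigen is carried by RHD and the C/c and E/e antigens by RHCE, a near copy of RHD. Both reach the surface in a complex with RHAG, the Rh-associated glycoprotein, which conducts ammonia. Glycophorins are heavily sialylated. GYPB carries the S/s antigens, GYPC carries the Gerbich antigens and tethers protein 4.1 of the membrane skeleton, and GYPE is a further member of the GYPB gene family. ERMAP, a butyrophilin-like protein, carries the Scianna antigens. K562 cells have long served as a model of erythroid gene expression.

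In nilotinibR cells, transcripts of the Kell-Kx pair, RHD and 1 probe each of RHCE and ERMAP were several-fold higher than in parental cells, while RHAG differed less. KEL was 8.16-fold higher, RHD 5.13-fold, and XK 3.55-fold. RHAG was 1.41-fold higher and did not reach the 1.5-fold at which a difference was counted. Of the 9 probes, 5 passed 1.5-fold in the higher direction, against 7.93% of the 17585 named probes kept on these arrays, and 0 in the lower direction, against 8.68%. The same 5 probes also passed 3-fold, as did 0.665% of all kept probes. By gene, taken as the mean of its kept probes, 5 of 6 members passed 1.5-fold higher and 0 lower, against 7.51% and 8.23% of the 13164 genes measured. At 2-fold, 4 of 6 members were higher, against 2.44% of all genes, and at 3-fold, 3 of 6, against 0.623%. The median log2 difference (nilotinibR minus parental) was 1.60 over the 6 members and -0.002 over all genes measured. All folds given here are ratios taken from log2 values after background correction with an added offset of 50. That offset pulls the folds of dim probes toward 1.

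A probe was kept when its intensity exceeded the dim-probe level, above which few probes of background brightness would lie, on at least 1 array. Where only 1 array exceeded it, the fold is a bound, given as at least N-fold. All 9 member probes were kept, 6 of them above the level on both arrays and 3 on 1 array only, and the 5 that passed were among the 6.

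**Figure D1:**
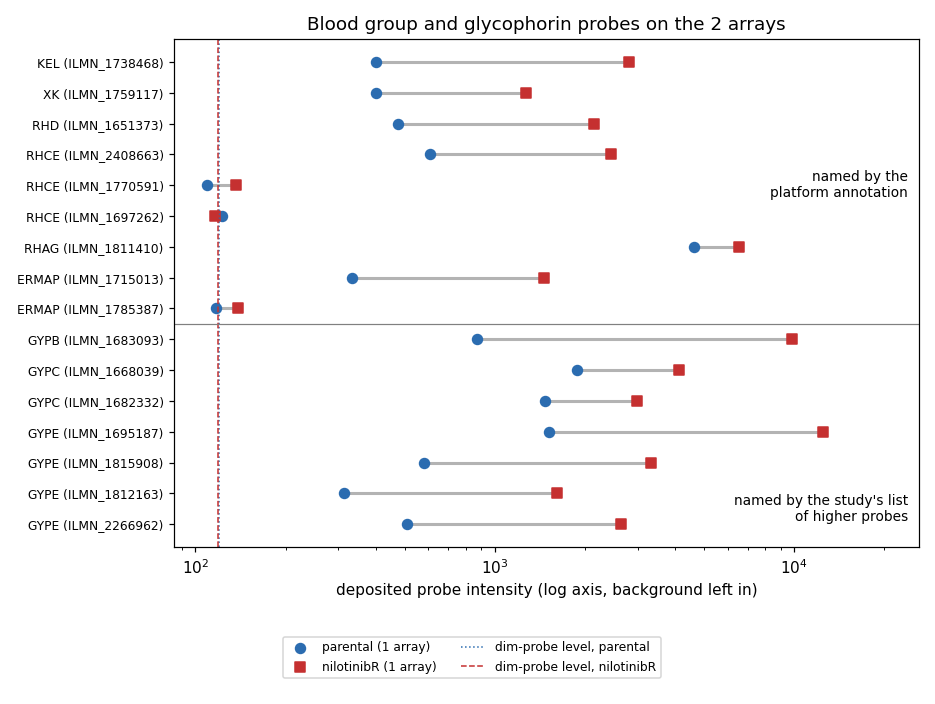
Deposited intensity (log axis, linear units with background left in) of each blood group and glycophorin probe on the parental array (circles) and the nilotinibR array (squares), with vertical lines at the dim-probe level of each array, 120.2 and 119.0. The KEL probe lies at 400.1 and 2798.5, whereas the RHCE probe ILMN_1697262 lies at 123.0 and 116.0, and the probes under the horizontal line were named only by a list of probes selected for being higher.

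The single KEL probe (ILMN_1738468) gave a deposited intensity of 400.1 on the parental and 2798.5 on the nilotinibR array. Only 7 of the 13164 genes measured had a larger increase, as KEL ranked at number 8. The XK probe (ILMN_1759117) stood at 401.4 and 1267.2, a log2 difference of 1.83, and XK ranked at number 55. Kell and XK, which are joined in the red cell membrane, were thus both higher in nilotinibR cells, KEL by 3.03 and XK by 1.83 on the log2 scale, from 1 probe each.

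The RHD probe (ILMN_1651373) gave intensities of 473.8 and 2149.7, a log2 difference of 2.36, and RHD ranked at number 17. The RHAG probe (ILMN_1811410) gave 4628.3 and 6553.1, a log2 difference of 0.50 that 89.6% of the kept named probes stayed below. RHAG, whose protein carries the Rh proteins to the cell surface, was therefore higher by less than RHD, from 1 probe for each gene. The 3 RHCE probes, which the annotation assigns to different transcripts of the gene, disagreed. ILMN_2408663 gave 605.2 and 2450.4 and was 4.52-fold higher. ILMN_1770591 gave 109.4 and 137.1 and fell short of the dim-probe level in parental cells, so it has only a bound of at least 1.24-fold higher. ILMN_1697262 gave 123.0 and 116.0 and fell short of that level in nilotinibR cells, with a bound of at least 1.04-fold lower. The log2 differences of the RHCE probes spanned 2.29, from -0.11 to 2.18. Among 657 genes with 3 kept probes the median span was 0.37, and 99.4% of them had a smaller span than RHCE. The gene mean of RHCE, 0.87 on the log2 scale, therefore rests on a single probe. RHD and RHCE are near copies of each other, and how far the probes cross-hybridize was not tested, so the RHD and RHCE differences may not be separate measurements.

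ERMAP also had 1 probe well above the dim level and 1 near it, although both are annotated to the same transcript. ILMN_1715013 gave 333.4 and 1460.2 and was 5.08-fold higher. ILMN_1785387 gave 117.1 and 138.2, fell short of the dim-probe level in parental cells and has a bound of at least 1.26-fold higher. These log2 differences, 2.35 and 0.40, spanned 1.95, a larger span than in 99.8% of the 2589 genes with 2 kept probes, whose median span was 0.19. With the dim RHCE and ERMAP probes set at their bounds, the gene means were 0.81 for RHCE and 1.34 for ERMAP, and the median over the 6 members was 1.58.

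**Figure D2:**
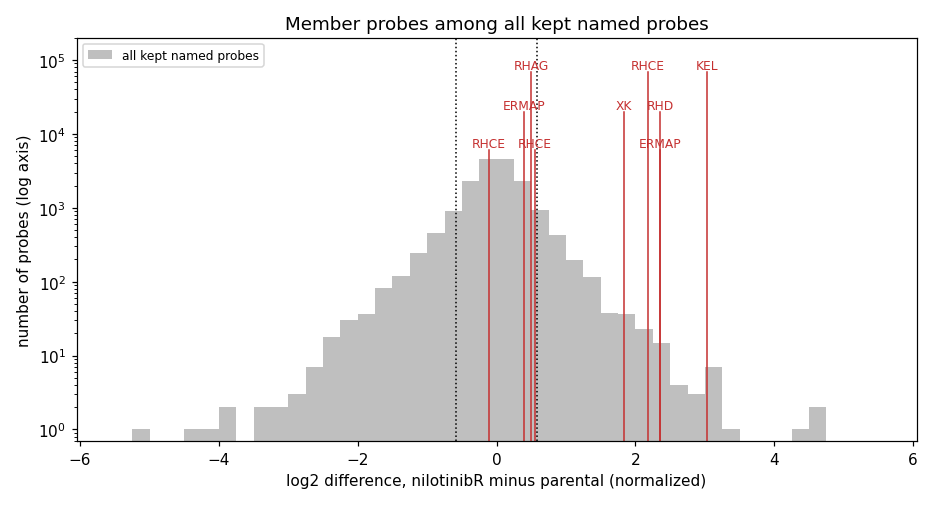
Number of kept named probes (log axis) by log2 difference, nilotinibR minus parental, in bins of equal width, with vertical red lines at the 9 member probes and dotted lines at 1.5-fold in each direction. The KEL, RHD, XK, and upper RHCE and ERMAP probes lie between 1.83 and 3.03, and the other 4 lie between -0.11 and 0.55.

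For the glycophorins, 7 probes on the same arrays could be named from a supplementary list of probes selected for being higher in nilotinibR cells. The direction of these probes was fixed by that choice, and a glycophorin probe that differed less would not have been named, so the values are a description only. The GYPB probe (ILMN_1683093) gave 869.0 and 9824.3, an 11.8-fold higher level in nilotinibR cells. The 4 probes named GYPE were 5.96-fold to 8.36-fold higher, and the one with the largest fold (ILMN_1695187) gave 1518.7 and 12474.5. The 2 GYPC probes gave 1882.6 and 4135.9, and 1472.8 and 2988.1, which were 2.32-fold and 2.18-fold higher. All 7 exceeded the dim-probe level in both conditions. GYPB and GYPE belong to a family of near copies and the probes named GYPE may also detect other family members, which was not tested. GYPC does not belong to that family, and its probes had the smallest folds of the 7. No probe named GYPB, GYPC or GYPE occurs in the companion list of lower probes.

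Since the members were mostly higher together, their promoters were read from the RefSeq table for GRCh38.p14, in windows of 250 bases before to 50 bases after a transcript start. Of the 9 genes, 8 were in the table and XK was not. GATA factors bind the core sequence GATA in many erythroid genes, and the words AGATAA or AGATAG, as well as TGATAA or TGATAG, were searched for on both strands, without regard to other motifs they may overlap. All 8 genes held at least 1 such word in a listed promoter, as did 11 of their 12 promoters, against 29.1% of 27305 genes and 25% of 35116 promoters. The listed promoters of RHD overlap and share the word, as do those of RHCE and those of GYPB. RHD and RHCE are also near copies, as are GYPB and GYPE, so these counts are not of independent sequences. The members and motifs were chosen with earlier results of these data known. The windows below show the word (capitals, which read as the reverse complement, TTATCA for example, where it lies on the opposite strand) with 12 bases on either side, 5′ to 3′ on the strand of the gene, so that the near copies can be compared.
KEL (chr7:142962408-142962437, minus strand): cctgagaagctgAGATAAagggggaggaga
RHD (chr1:25272421-25272450, plus strand): ccttgcagcctgAGATAAggcctttggcgg
RHCE (chr1:25420884-25420913, minus strand): ccttgcagcctgAGATAAggcctttggcgg
RHAG (chr6:49636853-49636882, minus strand): agtcctttgttcTTATCAacatctcacagc
GYPB (chr4:144019367-144019396, minus strand): ggtgggcctggaAGATAAcagctagtaggc
GYPE (chr4:143905587-143905616, minus strand): ggtgggcctggaAGATAAcagctagcaggc
GYPC (chr2:126656082-126656111, plus strand): aatgaagtctgcCTATCTccgggccagagc
ERMAP (chr1:42825477-42825506, plus strand): tgctctgttcttTTATCAggggcatacaga

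The RHD and RHCE windows are the same in all printed bases. Over the whole 300 bases, the RHD promoter at chr1:25272259-25272558 and the RHCE promoter at chr1:25420776-25421075 were identical at 298 positions (99.3%), with the word 76 bases before the start in both. The GYPB and GYPE promoters were identical at 287 of 294 aligned bases (97.6%). In KEL the word lay 62 bases before the start with a further word at 26 bases, and in RHAG, which differed least between the arrays, it lay 31 bases before the start. ERMAP held GATA words only in the second of its 2 listed promoters, at 72 and 215 bases before that start. A word for the CACCC box that KLF1 binds, CCNCNCCC, was present in 6 of the 8 genes, against 58.9% of all genes. A match describes these letters only, and binding was not measured here.

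Proteins that bind or accompany Kell, Rh or glycophorin C in the red cell membrane and its skeleton were listed as partners. This list and the lists below were chosen with earlier results of these data known. Of the 13 partners, 10 passed 1.5-fold higher and 0 lower, with a median log2 difference of 0.89. Over all genes these shares were 7.51% and 8.23%. SLC4A1, the band 3 anion exchanger around which the Rh complex assembles, gave 140.4 and 2302.7, and EPB42 (protein 4.2), which links band 3 and the Rh complex to the skeleton, gave 128.6 and 2011.9. They were 24.8-fold and 24.6-fold higher, the 2 largest increases of all genes measured. Both stood close to the dim-probe level of 120.2 in parental cells, so the size of these folds depends on the background correction. The deposited intensities, without this correction, differed 16.4-fold and 15.64-fold. ICAM4, the LW antigen of the Rh complex, was 3.43-fold and 3.23-fold higher by 2 probes, while its other probe was 1.09-fold lower. CD47, a further Rh complex protein that signals against phagocytosis, was 1.60-fold higher by its 1 kept probe, at 168.5 and 242.1.

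Among the skeleton proteins of the same list, DMTN (dematin) was 2.92-fold higher, ADD1 and ADD2 (adducins) were each 1.85-fold higher, ADD2 as the mean of a measured probe and of a probe that was dim in parental cells with a bound of at least 1.61-fold, and MPP1 (p55), which binds GYPC together with protein 4.1, was 1.78-fold higher. ANK1 (ankyrin) was 1.81-fold higher on average, from probes at 1.55 and, dim in parental cells, 0.16 on the log2 scale. The glucose transporter SLC2A1 was 2.17-fold higher. EPB41, which encodes protein 4.1 itself, was 1.30-fold higher, and its 3 probes, of which 1 was dim in parental cells, lay between 0.31 and 0.48 on the log2 scale. VPS13A, a lipid transfer protein that binds XK, was 1.34-fold higher with probes between -0.09 and 0.87, and STOM (stomatin) was 1.36-fold lower with probes between -0.87 and -0.02. These 3 did not reach 1.5-fold.

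Other genes whose proteins carry blood group antigens were also listed. Of 30 such genes, 28 had a probe and 24 exceeded the dim-probe level in at least 1 condition. Of the 24, 7 (29.2%) passed 1.5-fold higher, against 7.51% of all genes, 1 lower, against 8.23%, and 16 neither, with a median log2 difference of 0.22. Besides SLC4A1 (Diego) and ICAM4 (LW), which are also among the partners, these were ABCB6 (Langereis), a porphyrin transporter, at 2.83-fold higher, BSG (Ok), a chaperone of lactate transporters, at 2.44-fold by its 1 kept probe, SLC44A2, a choline transporter-like protein, at 2.30-fold, AQP1 (Colton), a water channel, at 1.68-fold from probes of which 1 was dim in parental cells, and the mechanosensitive channel PIEZO1 at 1.66-fold. EMP3 (MAM) was 1.72-fold lower, at 3427.0 and 1928.4. CD59 was 1.46-fold lower on average from probes at -0.91 and, dim in nilotinibR cells, -0.18 on the log2 scale, and CD44 (Indian) 1.30-fold lower from probes at -0.72 and -0.04, so that 1 probe of each passed 1.5-fold lower. CD55 (Cromer) was 1.01-fold higher. The Duffy gene ACKR1 and the Kidd gene SLC14A1 were dim in parental cells, with bounds of at least 1.21-fold and at least 1.04-fold higher. XG, SEMA7A, ABCG2 and the annotated SLC29A1 probe were dim on both arrays. The study reported SLC29A1 as upregulated in resistant cells by expression profiling and qPCR, and no other probe of SLC29A1 was read here.

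Antigens made of sugar depend on glycosyltransferases. Of 16 listed, 12 were measured, of which 4 (33.3%) passed 1.5-fold higher, against 7.51% of all genes, and 0 lower, against 8.23%, with a median log2 difference of 0.20. GBGT1 (Forssman synthase) was 2.52-fold higher, ST6GALNAC4, which adds sialic acid to O-glycans, 2.07-fold, and ST6GALNAC1 was higher by 0.72 on the log2 scale. A4GALT (P1PK), dim in parental cells, was at least 1.52-fold higher. ABO, FUT2, FUT3 and B4GALNT2 were dim on both arrays, and FUT1, which makes the H antigen, was 1.05-fold higher. C1GALT1, which builds the core O-glycan of glycophorins, was 1.26-fold higher.

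Relatives of the members from the same protein families were also listed. Of 22, 14 were measured, of which 0 passed 1.5-fold higher and 1 lower, with a median log2 difference of 0.07. In a list of this size, the shares of all genes, 7.51% higher and 8.23% lower, amount to about 1 gene each way, so these counts do not set the relatives apart. The lower gene was ECE2, a peptidase of the Kell family, which was 2.26-fold lower with probes at -1.10 and -1.26. In the same family ECE1 had a bound of at least 1.35-fold lower, MME was 1.36-fold lower and PHEX was at least 1.02-fold higher, while ECEL1 and MMEL1 were dim on both arrays. Among XK-related genes, XKR3 was 1.46-fold higher, XKR6, XKR8 and XKR5 had log2 differences of 0.06, -0.05 and 0.13, and XKR4 and XKR9 were dim on both arrays. In the Rh family, RHBG was dim on both arrays and RHCG, dim in nilotinibR cells, was at least 1.02-fold lower. Among butyrophilins and their relatives, BTN3A2 was 1.42-fold higher, BTN3A1 at least 1.25-fold higher, BTN2A2 1.06-fold higher, MOG at least 1.04-fold higher and BTN2A1 1.40-fold lower, while BTN1A1 and BTN3A3 were dim on both arrays. Whether members and relatives differ was not tested.

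**Figure D3:**
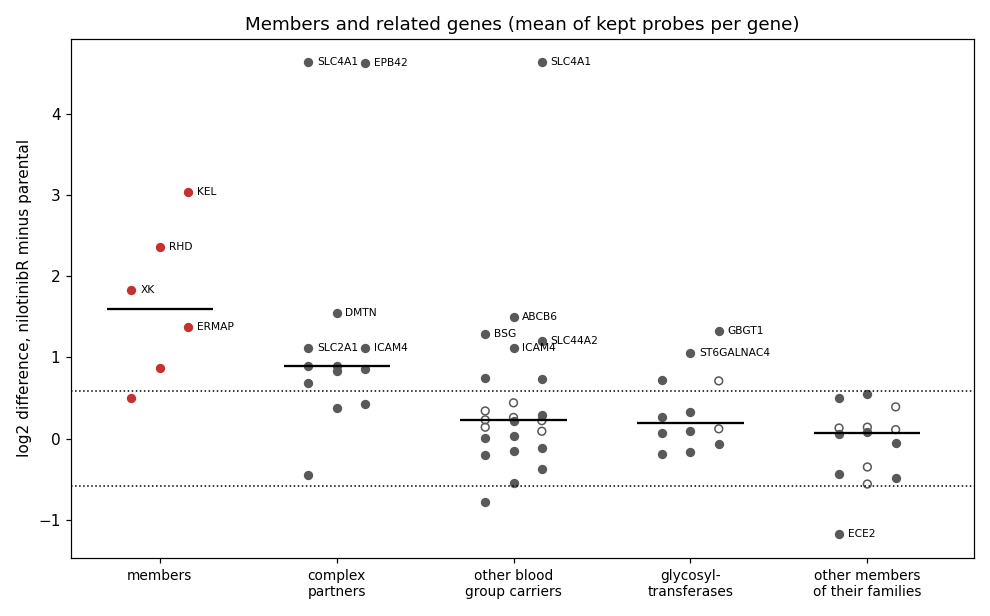
Log2 difference, nilotinibR minus parental, of each measured gene (mean of its kept probes) in 5 groups, with the group median as a bar, dotted lines at 1.5-fold and names from 2-fold on. Open circles are genes that exceeded the dim-probe level on 1 array only, drawn at their measured difference. Medians are 1.60 for the members, 0.89 for complex partners, 0.22 for other carriers, 0.20 for glycosyltransferases and 0.07 for other members of their families, and SLC4A1 and ICAM4 are drawn in 2 groups.

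Of 12 regulators of erythroid genes, 11 were measured, of which 6 (54.5%) passed 1.5-fold higher, against 7.51% of all genes, and 2 lower, against 8.23%. GFI1B was 4.18-fold higher, TAL1 3.69-fold, KLF1, an activator that binds CACCC boxes, 2.80-fold, LMO2 2.62-fold, ZFPM1 (FOG1), a partner of GATA1, 2.25-fold and NFE2 1.52-fold. GATA1 itself, with intensities of 601.5 and 637.7, was 1.10-fold higher. GATA2, which is replaced by GATA1 in erythroid maturation, was 3.32-fold lower and MYB 2.27-fold lower.

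Markers of other blood lineages were read on the same arrays. Of 10 erythroid markers all were measured, and 8 passed 1.5-fold higher and 0 lower, against 7.51% and 8.23% of all genes. The 8 were SLC4A1, EPB42, KLF1, AHSP (8.17-fold), ALAS2 (4.36-fold), EPOR (3.89-fold), HBA1 (2.10-fold) and TFRC (1.75-fold), while HBG1 (1.06-fold) and GATA1 (1.10-fold) did not pass. The summed deposited intensity of the list was 37562 in parental and 82586 in nilotinibR cells. Of 9 megakaryocyte markers 5 were measured and 1 was higher (TUBB1, 7.16-fold), while PF4, GP9 and VWF were dim on both arrays. The megakaryocyte sums were 982 and 3149, of which TUBB1 alone gave 418.1 and 2575.2. Of 10 granulocyte and monocyte markers 5 were measured (CD14, CSF1R, LYZ, FCN1 and SPI1), and 0 passed 1.5-fold by gene mean. For LYZ, 1 probe at 234.5 and 155.3 was 1.73-fold lower. Its other probe, dim in parental cells, was at least 1.12-fold higher. MPO, ELANE, CSF3R, S100A8 and S100A9 were dim on both arrays, and the granulocyte and monocyte sums were 1209 and 1069. Of 9 lymphoid markers 6 were measured and 1 was lower (CD3D), while CD3E and NKG7 were dim on both arrays. The lymphoid sums were 2912 and 1054, and the difference lay mostly in CD3D. The kept CD3D probes gave 963.1 and 112.2, dim in nilotinibR cells with a bound of at least 12.3-fold lower, and 1082.1 and 119.3, the latter barely over the dim-probe level of 119.0. Erythroid markers, which K562 cells are known to express, were thus measurable on both arrays. The granulocyte and monocyte list was mixed. MPO and ELANE were dim on both arrays, while FCN1 (132.6 and 134.4) and an SPI1 probe (189.2 and 154.5) exceeded the dim-probe level on both. The part of TUBB1 and CD3D in the differences of the members was not tested.

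The differences of the members were also computed under other normalizations and filters. KEL lay between 2.81 and 3.16 on the log2 scale, RHD between 2.18 and 2.46, XK between 1.66 and 1.93 and RHAG between 0.46 and 0.50. The upper probes of RHCE (2.02 to 2.25) and ERMAP (2.13 to 2.50) moved little. With an offset of 16 the dimmer probes ILMN_1770591 and ILMN_1785387 stood at 1.03 and 0.70, past 1.5-fold, so that 7 of 9 probes passed. Both of these probes were dim in parental cells. That offset also raised the share of all genes passing 1.5-fold higher, from 7.51% to 11.9%.

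**Figure D4:**
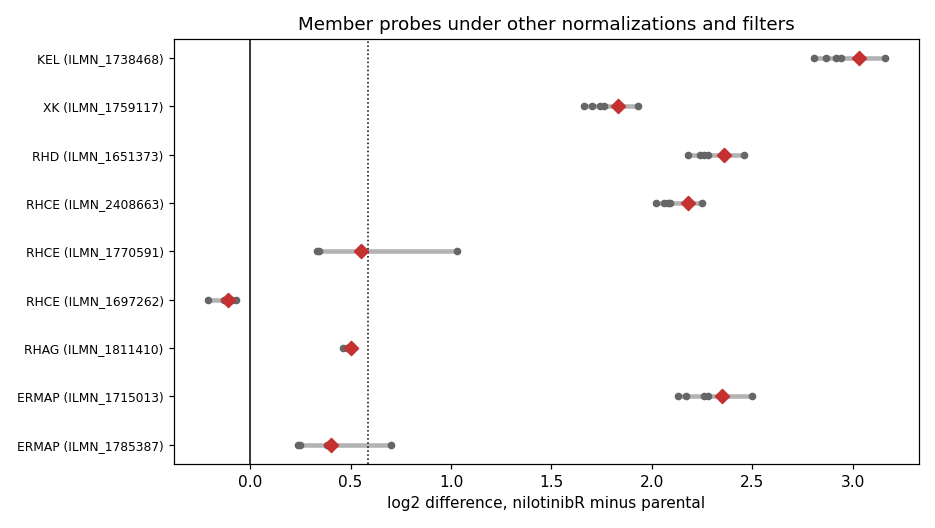
Log2 difference, nilotinibR minus parental, of each member probe as reported (diamonds) and under each other normalization or filter (grey points, with the range as a bar), with a solid line at 0 and a dotted line at 1.5-fold. RHAG stays between 0.46 and 0.50, and the RHCE probe ILMN_1697262 stays between -0.21 and -0.07.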

How the data were processed

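Total RNA of 1 parental and 1 nilotinibR culture was hybridized to HumanHT-12v4 BeadChips. The authors named GenomeStudio and robust multichip average, and deposited intensities on a linear scale (92.8 to 21126 parental, 88.2 to 22044 nilotinibR). The sources used here do not say which of these steps the values include. Scanner signals with detection p-values, 4 columns, were left out because their headings fit no sample. With limma 3.58.1 in R 4.3.3, intensities were corrected with normexp (offset 50), quantile normalized between the arrays and converted to log2. The steps were also run on simulated arrays in which only bright probes were changed, so changes in dim probes were not tested that way. A probe was kept if above the dim-probe level on at least 1 array: the mode of dim probes (111.5 and 109.5) plus 1.645 times their spread (5.30 and 5.77), which 5% of background would exceed. Probes above it on 1 array have a bound, against the higher of their own level and the lowest level above it. Symbols came from the platform annotation, updated through RefSeq for 30074 of 30113 probes. Glycophorin probes were named from the study's supplementary lists, in which 2152 of 2571 probes that the annotation also names had the same symbol (83.7%). Promoters were aligned with Biopython 1.88. Members, lists and motifs were chosen with earlier results of these data known. Named genes are all members with each probe, all partners and measured family relatives, and list genes past 1.5-fold, up to 8 a direction. Genes of these lists that did not pass (such as CD59, CD44, CD55, ACKR1, SLC14A1, FUT1 and C1GALT1) were chosen after their values were seen.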

Additional observations from a re-analysis of the deposited data

How the results depend on the processing

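No paired analysis was possible because each condition was hybridized once, which also left no replicate to omit. Values were recomputed without background correction, with an offset of 16, with each array scaled by its median or 75th percentile, from the log2 of the deposited values, with 3 changes to the dim-probe filter, by the brightest probe, at 2-fold and 3-fold, with the original symbols, and without near copies. None of the 9 member probes changed direction. Of the summary values, 89 stayed within 1.5 times or did not move, and 12 moved more. Some could not move, such as the member median at 2-fold and 3-fold. At 3-fold, 3 member genes, 1 other carrier, 0 glycosyltransferases and 2 partners passed, with 0 carriers lower, and RHCE and ERMAP were among the members that did not. At 2-fold, 2 glycosyltransferases and 5 partners passed, with 0 carriers lower. Of all genes, 2.44% passed 2-fold higher and 2.78% lower, and 0.623% passed 3-fold higher and 0.706% lower. The count of lower carriers was 2 of 24 with an offset of 16, against 12.6% of all genes. It was 2 of 17 with probes above the dim level on both arrays, against 10.1%. With the brightest probe it was 3 of 24, against 9.02%, so these counts lie near the shares of all genes. Without RHD and RHCE, 3 of 4 member genes passed 1.5-fold higher, against 7.51% of all genes. The gene mean of RHCE (0.75 to 2.18) and of ERMAP (1.19 to 2.35) depended on whether dim probes entered it. Probes near the dim level limit what RHCE and ERMAP can show.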
